A study of Mus musculus with 12 samples.

Results

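The interferon regulatory factors (Irf genes) encode transcription factors that share a DNA-binding domain and read the interferon-stimulated response element. Rows were taken by gene symbol for a list of 7 family members, Irf1, Irf2, Irf3, Irf5, Irf7, Irf8 and Irf9. Of these, 6 had a row among the 15002 genes in the tables, and Irf8, a member best known from blood cells, was not analysed here. All 6 passed the filter on low counts, which left 11900 genes for testing. The genes were measured by mRNA sequencing in 12 libraries of IEC4.1, a mouse line described as intestinal epithelial.

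As background, IFN-γ binds its receptor and activates the kinases Jak1 and Jak2. Signalling through them leads to binding at the gamma-activated site (GAS) and switches on Irf1, which in turn activates later genes. Irf2 binds the same elements as Irf1 and is known to oppose it at many genes. Irf9 is a subunit of ISGF3, the complex through which type I interferons act, and Irf7 is one of its classical target genes. Irf3, Irf5 and Irf7 are kept inactive until kinases downstream of nucleic acid sensors or Toll-like receptors phosphorylate them, so their mRNA level does not report their activity.

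Each of the 4 groups held 3 libraries, and every cell culture had been transfected with siRNA. siR_Ctrl cells received a scrambled control siRNA, and siR_Nostrill cells a pool of 3 siRNAs against Nostrill, a long noncoding RNA. The siR_Ctrl + IFN-γ and siR_Nostrill + IFN-γ cells were in addition given 1 ng/ml IFN-γ for 4 h after 24 h of transfection, by the study's methods, whereas the sample labels state 24 h for all libraries. Nostrill was not analysed here, so the knockdown itself was not checked. The results describe 1 cell line, 1 siRNA pool and 1 time after IFN-γ. The methods describe biological triplicates, and the p-values measure the spread between these libraries.

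Each library held from 17824306 to 19093204 reads on genes. The epithelial label was not borne out by its defining markers. Of 12 epithelial markers, 8 were listed, only Krt19 had a median of at least 1 FPKM, Epcam and Cdh1 had no row used here, and the summed level of the list lay between 1.41 and 3.22 FPKM in all 12 libraries. FPKM is the number of fragments scaled by transcript length and by the mapped reads of the library. Of 8 fibroblast and mesenchymal markers, 7 reached a median of 1 FPKM, with Vim at 1536 to 2056 FPKM and Col1a1 at 176 to 315 FPKM. Of 10 immune cell markers, 6 were listed and only Cd68 reached a median of 1 FPKM, while the median of Ptprc, the pan-leukocyte marker, was 0.

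The DNA before the start sites was read first, because GAS and the response element are the sites through which IFN-γ and the Irf proteins are known to act. Sequences came from RefSeq for GRCm38.p6, in which all 6 genes were found. The 250 bases before each start were searched on both strands for GAS, spelled TTCNNNGAA, and for the interferon-stimulated response element (ISRE), spelled GAAA and GAAA with any 2 bases (NN) between them. Among 32851 such windows of the mouse genome, 7.02% held the GAS letters and 2.98% held the ISRE letters. The window of Irf1 held 1 GAS match, and the window of Irf2 held 1 match of each kind. A second start of Irf1, both starts of Irf9 and the windows of Irf3, Irf5 and Irf7 held neither, which says only that these letters are not in those windows. The windows of Irf1 and Irf2 are shown for their matches, given in capitals, that of Irf9 as a gene that rose with IFN-γ without a match, and that of Irf3 as the gene that did not pass the test.
Irf1, chr11:53769764-53770013, plus strand: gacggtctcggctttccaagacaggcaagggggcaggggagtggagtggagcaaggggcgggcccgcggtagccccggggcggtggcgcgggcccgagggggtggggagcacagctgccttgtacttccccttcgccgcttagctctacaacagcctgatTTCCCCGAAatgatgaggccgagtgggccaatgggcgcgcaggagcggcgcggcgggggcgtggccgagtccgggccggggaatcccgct
Irf2, chr8:46739495-46739744, plus strand: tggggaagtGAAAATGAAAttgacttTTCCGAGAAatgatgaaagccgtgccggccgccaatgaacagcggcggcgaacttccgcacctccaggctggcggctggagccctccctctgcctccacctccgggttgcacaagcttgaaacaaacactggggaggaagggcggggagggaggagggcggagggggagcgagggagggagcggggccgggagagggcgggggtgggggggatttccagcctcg
Irf9, chr14:55603735-55603984, plus strand: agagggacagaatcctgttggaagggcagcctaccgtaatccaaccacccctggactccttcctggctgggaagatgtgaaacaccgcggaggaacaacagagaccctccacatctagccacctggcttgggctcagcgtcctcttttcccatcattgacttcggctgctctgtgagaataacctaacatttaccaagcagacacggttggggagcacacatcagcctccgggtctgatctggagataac
Irf3, chr7:44997398-44997647, plus strand: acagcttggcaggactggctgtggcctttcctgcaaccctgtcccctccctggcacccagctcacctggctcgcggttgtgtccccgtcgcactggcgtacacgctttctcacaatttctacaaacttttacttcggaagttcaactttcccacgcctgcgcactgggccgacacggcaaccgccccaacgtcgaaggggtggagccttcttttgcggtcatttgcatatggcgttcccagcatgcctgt

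In the Irf1 window the GAS letters TTCCCCGAA stood 90 to 82 bases before the start. In the Irf2 window the ISRE letters GAAAATGAAA stood 241 to 232 bases before the start and the GAS letters TTCCGAGAA stood 224 to 216 bases before it. A match is a description of the sequence and was not tested as a binding site.

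Irf1 was the most abundant member in every group and its lead widened with IFN-γ. In siR_Ctrl cells the order of mean FPKM was Irf1 at 50.9 ± 4.05 (SD, n = 3 here and for each level that follows), Irf3 at 16.8 ± 4.43, Irf2 at 6.58 ± 1.65, Irf9 at 6.16 ± 0.499, Irf5 at 4.80 ± 0.211 and Irf7 at 1.66 ± 0.332. The values of Irf2 and Irf9 overlapped between libraries, and no other neighbours in that order did. In siR_Ctrl + IFN-γ cells the order became Irf1 at 578 ± 15.6, Irf9 at 29.5 ± 1.14, Irf7 at 18.8 ± 2.56, Irf3 at 17.8 ± 3.49, Irf2 at 15.1 ± 4.51 and Irf5 at 7.15 ± 0.632 FPKM. Irf7 overlapped with Irf3, and Irf3 with Irf2. Irf7 thus went from the last to the third place, and Irf3 from the second to the fourth.

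The order in siR_Nostrill cells differed from that in siR_Ctrl cells only in the places of Irf9 and Irf2. It was Irf1 at 57.3 ± 3.21, Irf3 at 20.7 ± 2.11, Irf9 at 9.14 ± 1.09, Irf2 at 6.06 ± 1.68, Irf5 at 5.80 ± 0.107 and Irf7 at 3.75 ± 0.552 FPKM, where Irf9 overlapped with Irf2 and Irf2 with Irf5. With IFN-γ the order was the one of the siR_Ctrl + IFN-γ cells, with Irf1 at 543 ± 6.96, Irf9 at 32.0 ± 0.685, Irf7 at 23.3 ± 1.93, Irf3 at 16.5 ± 2.00, Irf2 at 16.3 ± 1.63 and Irf5 at 8.04 ± 0.747 FPKM. Only Irf3 and Irf2 overlapped there.

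**Figure D1:**
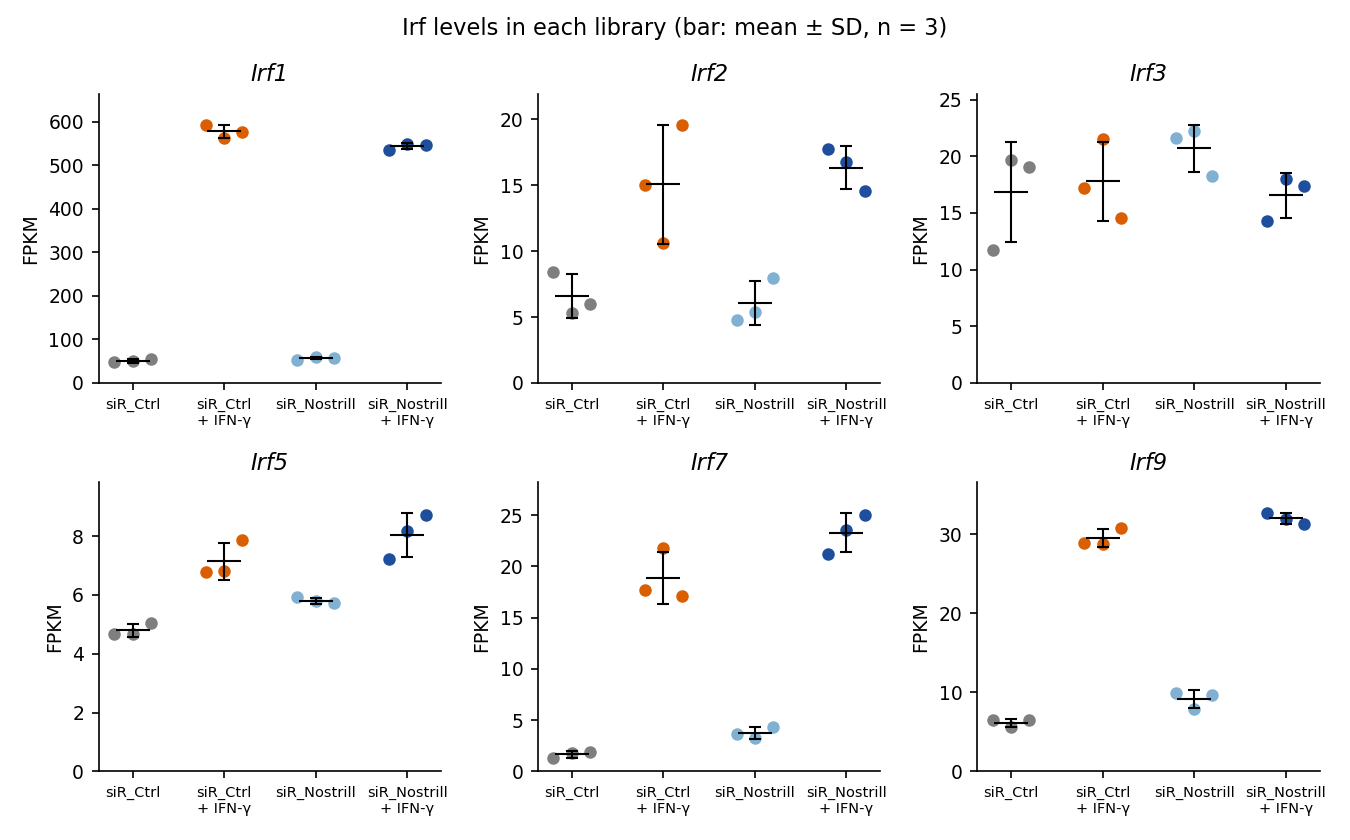
FPKM of 6 Irf genes on linear axes that start at 0, with 1 panel per gene and 1 point per library in each of the 4 groups. The horizontal bar is the mean and the whisker the SD of 3 libraries. Irf1, Irf7 and Irf9 with IFN-γ lie far above their levels without it, while the levels of Irf3 overlap between siR_Ctrl and siR_Ctrl + IFN-γ cells.

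Summed over the 6 genes, the Irf mRNA level was 86.9 ± 7.02 FPKM without and 666 ± 13.7 FPKM with IFN-γ in siR_Ctrl cells, and 103 ± 2.76 and 639 ± 9.66 FPKM in siR_Nostrill cells. In such bulk RNA, more mRNA per cell and more cells that express a gene cannot be told apart. Irf1 made up 58.6% ± 0.680 of that sum in siR_Ctrl cells and 86.7% ± 0.584 in siR_Ctrl + IFN-γ cells. Its share was 55.7% ± 1.71 in siR_Nostrill cells and 85.0% ± 0.202 in siR_Nostrill + IFN-γ cells, so the groups with and without IFN-γ did not overlap. The share of Irf3 fell from 19.2% ± 4.0 to 2.67% ± 0.569 in siR_Ctrl cells. The level of Irf3 itself did not pass the test for a change. The mean shares of Irf2, Irf9 and Irf5 fell there too, although the levels of these genes rose. They went from 7.69% to 2.26%, from 7.12% to 4.43% and from 5.53% to 1.07%. The share of Irf7 rose, as that of Irf1 did.

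**Figure D2:**
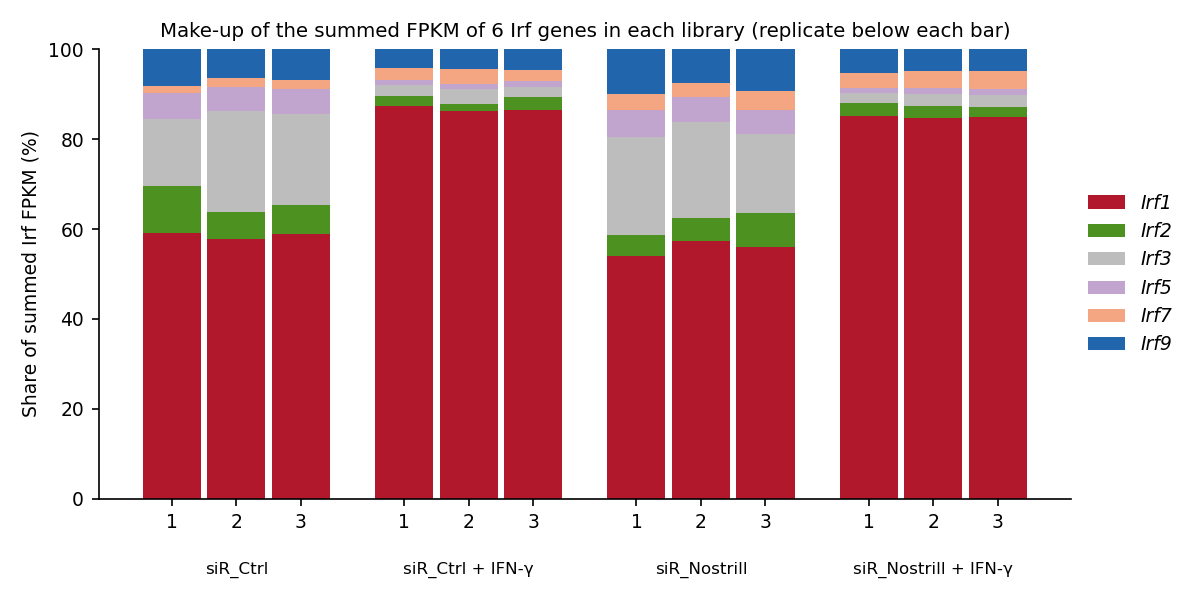
Share in percent of each of 6 Irf genes in their summed FPKM, with 1 stacked bar for each of the 12 libraries, ordered by group and replicate. Irf1 takes 53.9% to 59.1% of the sum in the 6 libraries without IFN-γ and 84.8% to 87.4% in the 6 libraries with it.

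The first comparison asked which members respond to IFN-γ in cells with the control siRNA. Irf1, Irf2, Irf5, Irf7 and Irf9 rose and Irf3 did not pass the test, so that 5 of 6 members passed where 5.45% of all genes tested did. The test was the quasi-likelihood test of edgeR, adjusted after Benjamini and Hochberg over all 11900 genes, and log2 fold changes are of normalized counts. The median log2 fold change was 1.78 over the 6 members and -0.0085 over all genes tested.

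Irf1 (gene ID 16362, chr11:53770014-53778374), an early target of IFN-γ signalling, stood at 47.0, 50.6 and 55.1 FPKM in the siR_Ctrl libraries and at 594, 562 and 577 FPKM in the siR_Ctrl + IFN-γ libraries. The lowest library with IFN-γ was thus far above the highest without it. Its log2 fold change was 3.57 with an SE of 0.10 (adjusted p = 8.50e-10), and its p ranked 10 among 11900 genes. With 1606 to 1879 reads per library without IFN-γ and 20498 to 20928 with it, Irf1 was the most deeply counted member.

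Irf7 (gene ID 54123, chr7:141263183-141266499), an amplifier of type I interferon production, was the least expressed member without IFN-γ. It had 1.29, 1.76 and 1.93 FPKM in the siR_Ctrl libraries, which rested on 36, 51 and 55 reads. With IFN-γ it had 17.7, 21.8 and 17.1 FPKM, and the groups did not overlap. The log2 fold change was 3.57, SE 0.20 (adjusted p = 2.28e-07).

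Irf9 (gene ID 16391, chr14:55603985-55610030), the DNA-binding subunit of ISGF3, stood at 6.45, 5.58 and 6.44 FPKM without IFN-γ. With IFN-γ it stood at 28.9, 28.7 and 30.8 FPKM, again without overlap. Its log2 fold change was 2.31 with an SE of 0.092 (adjusted p = 1.10e-08).

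The remaining responses were smaller. Irf2 (gene ID 16363, chr8:46739745-46847458) stood at 8.44, 5.29 and 6.0 FPKM without IFN-γ and at 15.0, 10.6 and 19.6 FPKM with it, and the lowest treated library still exceeded the highest untreated one. Its log2 fold change was 1.25 with an SE of 0.21 (adjusted p = 0.00388). Irf5 (gene ID 27056, chr6:29526130-29541869), a factor downstream of the adaptor Myd88, stood at 4.67, 4.68 and 5.04 FPKM without IFN-γ and at 6.77, 6.80 and 7.88 FPKM with it, without overlap. Its log2 fold change was 0.67 with an SE of 0.11 (adjusted p = 0.00308).

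Irf3 (gene ID 54131, chr7:44997648-45002848), the constitutive factor that starts interferon beta production, stood at 11.7, 19.7 and 19.1 FPKM without IFN-γ and at 17.2, 21.5 and 14.6 FPKM with it. The groups overlapped. The log2 fold change was 0.10 with a 95% interval from -0.37 to 0.57 (adjusted p = 0.861), so the interval holds changes of either sign. Its sign turned when either of 2 libraries was left out, to -0.11 without siR_Ctrl replicate 1 and to -0.094 without siR_Ctrl + IFN-γ replicate 2.

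As ratios of mean FPKM, Irf1 rose 11.4-fold, Irf7 11.4-fold, Irf9 4.79-fold, Irf2 2.29-fold and Irf5 1.49-fold in siR_Ctrl cells. Since Irf1 rose more than its known antagonist Irf2, the ratio of Irf1 to Irf2 FPKM went from 8.11 ± 2.21 to 40.7 ± 11.9. In single libraries the ratio lay between 5.57 and 9.57 without IFN-γ and between 29.4 and 53.1 with it.

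The same comparison in siR_Nostrill cells asked which members respond in cells given the siRNA pool against Nostrill. Irf1, Irf2, Irf5, Irf7 and Irf9 rose here too, again 5 of 6 members, where 6.78% of all genes tested passed. The median log2 fold change over the members was 1.59. The 2 IFN-γ comparisons share no library, but all libraries entered one fit.

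Irf1 had 53.6, 59.8 and 58.3 FPKM in the siR_Nostrill libraries and 535, 548 and 546 FPKM in the siR_Nostrill + IFN-γ libraries, without overlap. Its log2 fold change was 3.23, SE 0.10 (adjusted p = 2.02e-09). Irf7 had 3.65, 3.26 and 4.35 FPKM without IFN-γ and 21.2, 23.6 and 25.0 FPKM with it, also without overlap. Irf7 rose by a log2 fold change of 2.61 with an SE of 0.18 (adjusted p = 1.85e-06).

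Irf9 had 9.90, 7.89 and 9.64 FPKM without IFN-γ and 32.7, 32.0 and 31.3 FPKM with it, and the groups did not overlap. The log2 fold change of Irf9 was 1.77 with an SE of 0.089 (adjusted p = 1.00e-07). Irf2 went from 4.80, 5.40 and 7.97 FPKM to 17.7, 16.7 and 14.6 FPKM, without overlap, at a log2 fold change of 1.41 with an SE of 0.22 (adjusted p = 0.00151). Of the 5, Irf5 rose least.

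Irf5 went from 5.92, 5.78 and 5.71 FPKM to 7.24, 8.16 and 8.72 FPKM. The groups did not overlap, and the log2 fold change was 0.49 with an SE of 0.11 (adjusted p = 0.0204). This call was lost when any 1 of 5 libraries was left out, namely each of the 3 siR_Nostrill libraries and replicates 2 and 3 of siR_Nostrill + IFN-γ, with adjusted p from 0.0551 to 0.0965. Irf3 had 21.6, 22.2 and 18.3 FPKM without IFN-γ and 14.3, 17.98 and 17.4 FPKM with it. Its groups did not overlap, yet its log2 fold change of -0.31 had a 95% interval from -0.78 to 0.16 (adjusted p = 0.392).

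**Figure D3:**
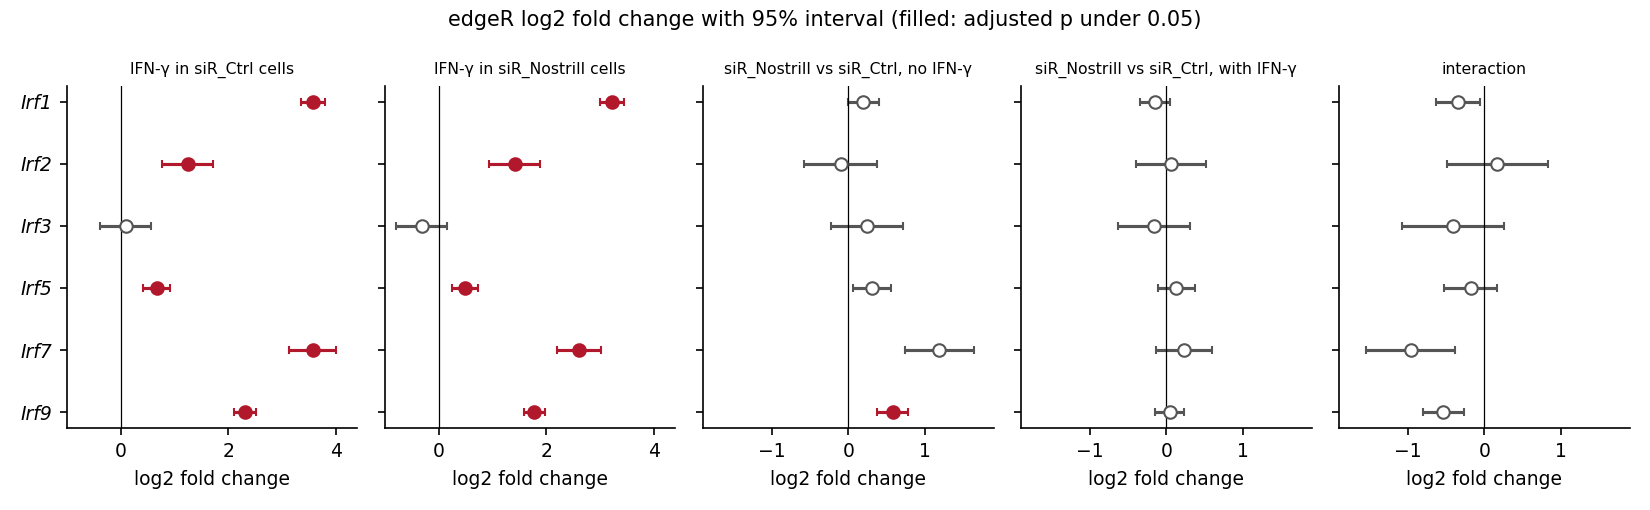
Log2 fold change of normalized counts for 6 Irf genes in 5 comparisons, with 95% intervals from the edgeR fit of 12 libraries and filled points where the adjusted p was under 0.05. The IFN-γ panels run on a different scale from the other 3. In both IFN-γ panels 5 of 6 members are filled, in the panel of siR_Nostrill against siR_Ctrl without IFN-γ only Irf9 is, and in the last 2 panels none is.

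The next comparison asked whether the members differed between siR_Nostrill and siR_Ctrl cells without IFN-γ. Only Irf9 passed, 1 of 6 members, where 0.218% of all genes tested did. Irf7 had the larger fold change and fell just short of the threshold. The median log2 fold change was 0.28 over the members and 0.0051 over all genes tested.

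Irf9 stood at 5.58 to 6.45 FPKM in the siR_Ctrl libraries and at 7.89 to 9.90 FPKM in the siR_Nostrill libraries, so that every siR_Nostrill library was higher. The log2 fold change was 0.58 with an SE of 0.091 (adjusted p = 0.0357). The call was lost in 10 of 12 fits that left out 1 library and was kept only without replicate 2 or replicate 3 of siR_Ctrl + IFN-γ, over an adjusted p of 0.0369 to 0.175, while the log2 fold change stayed between 0.52 and 0.67. It was also lost when only the compared groups were fitted (adjusted p = 0.462) and with limma on log2(FPKM + 1) or log2(FPKM + 0.1) (adjusted p = 0.0694 and 0.0538). Over all 22 alternative settings it was kept in 7.

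Irf7 lay at 1.29 to 1.93 FPKM in the siR_Ctrl libraries and at 3.26 to 4.35 FPKM in the siR_Nostrill libraries, on 36 to 55 and 91 to 125 reads. The groups did not overlap. The log2 fold change was 1.19, SE 0.21 (unadjusted p = 0.000115, adjusted p = 0.0508 in edgeR). It passed with DESeq2 (adjusted p = 3.77e-05), with that tool's size factors in edgeR (adjusted p = 0.0482), with a minimum mean of 5 CPM (adjusted p = 0.0490), and with the trend over transcript length removed (adjusted p = 0.00230). It also passed with limma on log2(FPKM + 1) or log2(FPKM + 0.1) (adjusted p = 0.0275 and 0.0228) and without siR_Ctrl + IFN-γ replicate 2 (adjusted p = 0.0306). Irf7 thus passed in 7 of 22 settings, and in the others its adjusted p lay between 0.0518 and 0.328.

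Irf5 had 4.67 to 5.04 FPKM in siR_Ctrl and 5.71 to 5.92 FPKM in siR_Nostrill cells, without overlap, at a log2 fold change of 0.31 with a 95% interval from 0.066 to 0.56 (adjusted p = 0.299). Irf1 overlapped between the groups, at 0.20 with an interval from -0.0051 to 0.40 (adjusted p = 0.360). Irf2 at -0.10, from -0.58 to 0.38, and Irf3 at 0.25, from -0.23 to 0.72, overlapped too. A doubling of Irf1, Irf2, Irf3 or Irf5 lies outside these intervals.

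With IFN-γ present, no member passed in siR_Nostrill against siR_Ctrl cells, where 0.429% of all genes tested did. None of the 6 had an unadjusted p under 0.05 in edgeR, against 1730 of all genes, and DESeq2 called none either. Irf1 lay at 562 to 594 FPKM in siR_Ctrl + IFN-γ and at 535 to 548 FPKM in siR_Nostrill + IFN-γ cells, without overlap. Its log2 fold change was -0.15, with an interval from -0.35 to 0.052 (adjusted p = 0.495 in edgeR).

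Irf9 did not overlap either, at 28.7 to 30.8 FPKM in siR_Ctrl + IFN-γ and 31.3 to 32.7 FPKM in siR_Nostrill + IFN-γ cells, with a log2 fold change of 0.045 and an interval from -0.14 to 0.23. Irf7 overlapped, at 0.23 with an interval from -0.13 to 0.60. For Irf2 the interval ran from -0.39 to 0.52, for Irf3 from -0.64 to 0.31 and for Irf5 from -0.11 to 0.37. The comparison without IFN-γ had given 1.19 for Irf7 and 0.58 for Irf9, and the test of whether these values differ with IFN-γ is the interaction.

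Whether the IFN-γ response itself differed between the siRNAs was tested as an interaction, the log2 fold change in siR_Nostrill cells minus that in siR_Ctrl cells. No member passed, and 0% of all genes tested did, while 1277 genes and 3 members had an unadjusted p under 0.05 in edgeR, and DESeq2 called no member. The 3 were Irf7 at -0.96 (interval from -1.54 to -0.38, unadjusted p = 0.00386, adjusted p = 0.430 in edgeR), Irf9 at -0.54 (interval from -0.81 to -0.26, unadjusted p = 0.00118) and Irf1 at -0.35 (interval from -0.63 to -0.061, unadjusted p = 0.0215). All 3 had a lower fold in siR_Nostrill cells. The mean level of Irf7 was 1.66 and 3.75 FPKM without IFN-γ and 18.8 and 23.3 FPKM with it, in siR_Ctrl and siR_Nostrill cells. On the log2(FPKM + 1) scale in limma the interaction of Irf7 was -0.54. For Irf9 the means were 6.16 and 9.14 FPKM without IFN-γ and 29.5 and 32.0 FPKM with it. The comparisons between siRNAs and those of IFN-γ share their libraries, so these values are not independent of one another. The values for Irf2 were 0.17 (interval from -0.50 to 0.83), for Irf3 -0.41 (interval from -1.08 to 0.26) and for Irf5 -0.18 (interval from -0.53 to 0.16).

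Irf2 and Irf3 varied widely between replicates, with a coefficient of variation of up to 29.9% and 26.3% in a group, and in opposite directions. Within all 4 groups the library with the lowest FPKM summed over all genes had the highest Irf2 and the lowest Irf3. In siR_Ctrl cells this was replicate 1, with 8.44 FPKM for Irf2 and 11.7 FPKM for Irf3, against 5.29 and 6.0, and 19.7 and 19.1, in the others. The same library had the highest Irf9 in 3 of 4 groups and the lowest Irf5 and Irf7 in 3 of 4 groups.

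The libraries differed in how their counts related to transcript length. The Spearman correlation across genes of a library's deviation with effective length ran from -0.75 to 0.78, where genes are not independent. Effective length was 2263 nt for Irf2 and 1604 nt for Irf3, longer than 40.4% and 24.3% of genes tested. It was 2204 nt for Irf9 and 1566 nt for Irf7. Across genes, the log2 fold change of siR_Nostrill against siR_Ctrl without IFN-γ correlated with length at a Spearman rho of -0.65. The rho was -0.42 for IFN-γ in siR_Ctrl cells, 0.48 for IFN-γ in siR_Nostrill cells, 0.26 for siR_Nostrill with IFN-γ and 0.65 for the interaction. For siR_Nostrill without IFN-γ, Irf9 remained called and Irf7 became called once the length trend was removed, at log2 fold changes of 0.53 and 1.07. The interaction of Irf7 was -0.78 with the trend removed, and no member passed there. For IFN-γ in siR_Ctrl cells, removing the trend took the SE of Irf3 from 0.21 to 0.13 and left that of Irf2 at 0.21.

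**Figure D4:**
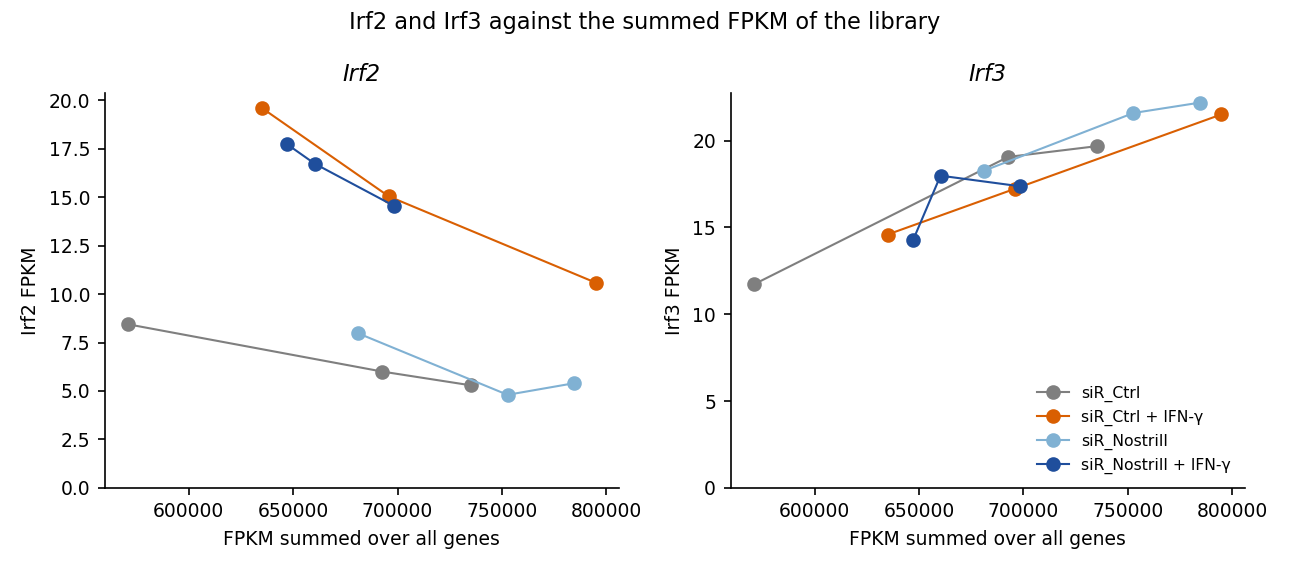
FPKM of Irf2 and of Irf3 against the FPKM summed over all genes of the library, with 1 point per library and lines joining the 3 libraries of a group in order of that sum. In each of the 4 groups the leftmost library has the highest Irf2 and the lowest Irf3.

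The other genes of the pathway were followed in lists by their role, each count being of genes tested, to be read against the 5.45% of all genes tested that passed with IFN-γ in siR_Ctrl cells and the 6.78% in siR_Nostrill cells. Of 6 genes of the IFN-γ receptor and its kinases and feedback inhibitors, 2 rose with IFN-γ in siR_Ctrl cells, the inhibitors Socs1 (log2 fold change 3.0) and Socs3 (2.47). In siR_Nostrill cells 3 rose, Socs1 (2.91), Socs3 (2.2) and Jak2 (0.64). In siR_Ctrl cells Jak2 had 0.38 (adjusted p = 0.150 in edgeR), and its interaction of 0.26 did not pass (unadjusted p = 0.186 in edgeR). Over the other settings 2 to 3 of the list rose in siR_Ctrl and 2 to 4 in siR_Nostrill cells. The 3 and the 4 came with the length trend removed, where 1322 and 2257 of all genes passed, and the 3 also without siR_Ctrl replicate 1. The 2 in siR_Nostrill cells came without replicate 2 of siR_Nostrill or of siR_Nostrill + IFN-γ. Ifngr2, a receptor chain, was higher in siR_Nostrill + IFN-γ than in siR_Ctrl + IFN-γ cells, at 0.54 (adjusted p = 0.0375 in edgeR). That call was lost in 11 of 22 alternative settings, namely only the compared groups (adjusted p = 0.157), the replicate block (adjusted p = 0.0503) and 9 of the 12 fits that left out 1 library, and was kept there only without siR_Ctrl replicate 1, siR_Nostrill replicate 1 or siR_Nostrill replicate 3. The change stayed between 0.51 and 0.60 on the log2 scale, and without IFN-γ Ifngr2 had 0.39 (unadjusted p = 0.00129, adjusted p = 0.150 in edgeR). Between the siRNAs with IFN-γ, up to 2 of the 6 genes passed in other settings, 1 higher and 1 lower. The 2 came with DESeq2 and with the length trend removed, and in the latter 1540 of all genes passed. Without IFN-γ up to 1 passed, higher, with DESeq2.

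Of 5 tested genes for type I and III interferon receptors and ISGF3 partners, 2 rose with IFN-γ under both siRNAs. Stat2, a subunit of ISGF3, rose by 3.18 in siR_Ctrl and 2.91 in siR_Nostrill cells on the log2 scale, and the receptor chain Ifnar2 by 0.88 and 0.70. Without IFN-γ, siR_Nostrill against siR_Ctrl gave 0.21 (adjusted p = 0.361) for Stat2 in edgeR, which did not pass where Irf9 did.

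Of 18 sensors, adaptors and kinases that act upstream of Irf3, Irf5 and Irf7, 5 rose in siR_Ctrl cells, where 5.45% of all genes passed. The largest were Tlr3 (2.45), a receptor for double-stranded RNA, the RNA sensor Ifih1 (1.74), the adaptor Myd88 (1.38 as log2 fold change) and the RNA sensor Ddx58 (1.27), and Tmem173, which encodes STING, also rose (1.10). In siR_Nostrill cells 6 rose, these and the DNA sensor Cgas (0.67), where 6.78% of all genes passed. Cgas had 0.12 in siR_Ctrl cells (adjusted p = 0.762 in edgeR), and its interaction of 0.55 did not pass (unadjusted p = 0.0246, adjusted p = 0.430 in edgeR). Over the other settings 5 to 7 of the list rose in siR_Nostrill cells. It was 5 without replicate 1 or 2 of siR_Nostrill, without replicate 1 or 2 of siR_Nostrill + IFN-γ, and with limma on log2(FPKM + 1) for all genes. None passed for siR_Nostrill against siR_Ctrl with or without IFN-γ in the main analysis, where 0.429% and 0.218% of all genes passed. In other settings up to 2 passed without IFN-γ, both higher, and up to 6 with it, 4 higher and 2 lower. Both counts came with the length trend removed, where 3.39% and 12.9% of all genes passed.

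Of 8 partners and co-regulators of the Irf proteins, 2 rose in each IFN-γ comparison, where 5.45% and 6.78% of all genes passed. Over the other settings the number that rose was 1 to 3 in siR_Ctrl and 1 to 4 in siR_Nostrill cells, the 3 and the 4 with the length trend removed, where 11.1% and 19.0% of all genes passed, and the 4 also when only the groups compared were fitted, where 17.0% did. Batf2, a partner of Irf1, was near 0 without IFN-γ, at a mean of 0.053 FPKM in siR_Ctrl and 0.13 FPKM in siR_Nostrill cells, and reached 24.9 and 31.7 FPKM with it. Batf3 rose in siR_Ctrl cells (1.91) and had 1.22 in siR_Nostrill cells (adjusted p = 0.0564 in edgeR). Etv6 rose in siR_Nostrill cells (0.74) and had 0.39 in siR_Ctrl cells (adjusted p = 0.276 in edgeR). The interaction passed for neither, with unadjusted p of 0.186 for Batf3 and 0.155 for Etv6 in edgeR. The Irf2-binding co-repressor genes gave log2 fold changes with IFN-γ in siR_Ctrl cells of -0.044 for Irf2bp1, -0.063 for Irf2bp2 and -0.035 for Irf2bpl, and none of the 3 passed in any comparison of the main analysis. In siR_Nostrill cells Irf2bp2 had -0.22 (adjusted p = 0.0921 in edgeR) and was called lower with DESeq2. Irf2bpl was called lower between the siRNAs with IFN-γ once the length trend was removed.

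Of 19 interferon genes, 2 were listed, and neither was tested because of low counts. Ifnb1 had at most 1 read and Ifne at most 3 reads in a library, and their median level was 0.

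Genes known to need Irf1 or ISGF3 were followed last. Of 9 tested genes known to need Irf1, 9 rose with IFN-γ under each siRNA, where 5.45% and 6.78% of all genes passed, at a median log2 fold change of 4.69 in siR_Ctrl and 4.46 in siR_Nostrill cells. In siR_Ctrl cells the largest were Gbp2 (6.63), a guanylate-binding protein of cell-autonomous defence, Cd274 (5.40), which encodes PD-L1, the peptide transporter gene Tap1 (5.37) and the immunoproteasome gene Psmb9 (5.32). In siR_Nostrill cells the same 4 genes had 6.40, 5.61, 4.78 and 4.86. The other settings tested 8 to 10 of the list, and 7 to 10 rose with IFN-γ in siR_Ctrl and 8 to 10 in siR_Nostrill cells. Ciita had a mean of 0.043 FPKM without IFN-γ under each siRNA. A gene so near 0 entered the test through libraries with IFN-γ, so its part of the count was largely fixed in advance. None of the 9 passed for siR_Nostrill against siR_Ctrl, where 0.218% of all genes passed without and 0.429% with IFN-γ, and where their medians were 0.15 and 0.036. In other settings up to 2 passed without IFN-γ, with DESeq2, where 1.77% of all genes passed, and up to 3 with it, with the length trend removed, where 12.9% did.

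Of 12 tested genes known as ISGF3 targets, 12 rose with IFN-γ in siR_Ctrl cells and 11 in siR_Nostrill cells, where 5.45% and 6.78% of all genes passed, at median log2 fold changes of 3.45 and 2.80. With a minimum mean of 5 CPM only 7 of the list were tested, and 7 rose under each siRNA. Cmpk2 and Ifi44 were near 0 without IFN-γ, at means of 0.0067 and 0.063 FPKM in siR_Ctrl cells. They entered the test through libraries with IFN-γ, so their part of the count was largely fixed in advance. Without IFN-γ, 3 of the 12 were higher in siR_Nostrill than in siR_Ctrl cells, where 0.218% of all genes passed. These were Oasl1 (1.25, adjusted p = 0.0472), Oasl2 (1.10, adjusted p = 0.0189) and Ifit1 (1.03, adjusted p = 0.0384) in edgeR, all antiviral effectors or their relatives. All 12 had a positive log2 fold change, with a median of 1.06 against 0.0051 over all genes. For Cmpk2 (1.69, SE 1.24) and Ifi44 (0.17, SE 0.79), both near 0 FPKM without IFN-γ, the sign rests on few reads. The 12 genes were read from the same libraries, so their signs are not independent of one another. The number that passed ran from 0 to 6 over the other settings, the 6 with DESeq2, where 1.77% of all genes passed, and from 0 to 3 when 1 library was left out. It was 0 without siR_Ctrl replicate 1, any 1 siR_Nostrill library or siR_Nostrill + IFN-γ replicate 2. With IFN-γ none of the 12 passed between the siRNAs in the main analysis, where 0.429% of all genes passed, and their median was 0.27. Up to 3 passed in other settings, with the length trend removed, where 12.9% of all genes did. In the interaction none of the 12 passed in any setting, and their median was -0.85 in the main analysis. There, 5 of the 12 had an unadjusted p under 0.05 in edgeR, against 1277 of all 11900 genes.

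**Figure D5:**
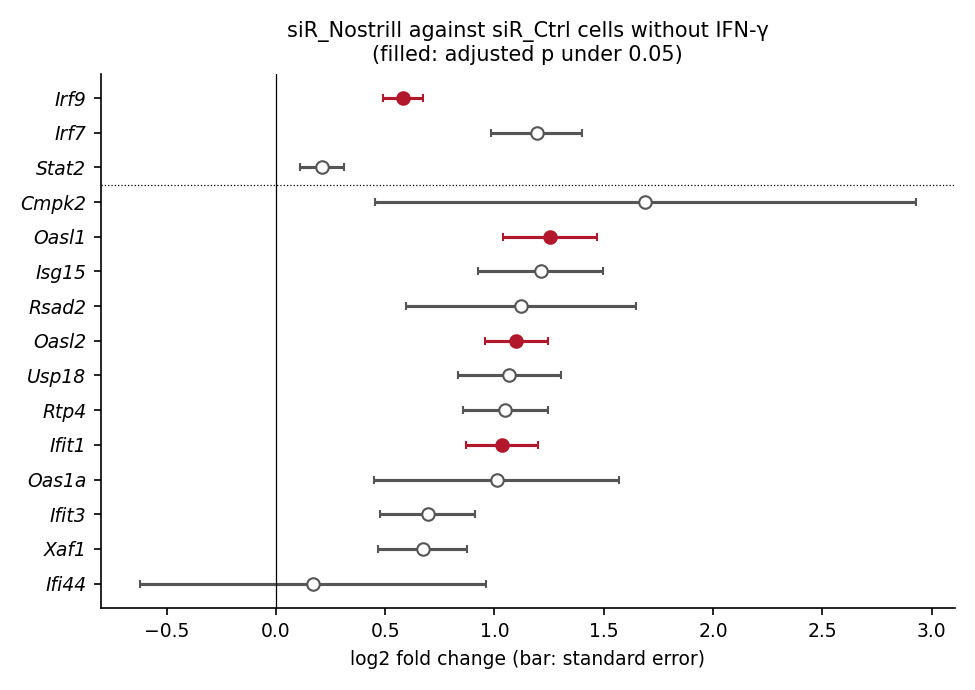
Log2 fold change with its standard error for siR_Nostrill against siR_Ctrl cells without IFN-γ, for 12 ISGF3 target genes below the dotted line and for Irf9, Irf7 and Stat2 above it. Filled points passed at an adjusted p under 0.05. All 12 targets lie to the right of 0, that of Ifi44 with a bar that crosses 0, and Irf9, Oasl1, Oasl2 and Ifit1 are filled.

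The genes whose log2 CPM followed each member most closely over the 12 libraries were listed as a description, and the values share the groups, the library depth and the length-related spread. For Irf1 they were Tvp23a, Parp10 and Trim21, with Pearson's r of 0.999 for the first. For Irf9 they were Tnfrsf1a, Oasl2 and Usp18 (r = 0.995 for the first), and for Irf7 Rtp4, Ube2l6 and Klhl25 (r = 0.995 for the first). For Irf5 they were Dhx58, Vhl and Trex1, with 0.971 for the first. For Irf2 they were Cttnbp2nl, Rnf213 and Znfx1, with 0.994 for the first, and for Irf3 they were Rit1, Hmces and S100a1, with 0.992 for the first.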

How the data were processed

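The mRNA of IEC4.1 cells gave 12 libraries, 3 in each of 4 groups taken from the sample labels. The authors filtered reads with SOAPnuke, aligned them with HISAT2 and Bowtie2 to GRCm38.p6 and deposited an estimated count per gene, which was not normalized. For these counts, a tool was not given in the sources used here. FPKM (scaled by length and by mapped reads) and TPM were deposited as well, the latter used here only to check library totals. All rows were mRNA.

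Estimated counts, whole for 90.6% to 91.6% of genes, were rounded and tested with edgeR 4.0.16 in R 4.3.3 (TMM, default filter on low counts, group as the only term, two-sided, threshold 0.05). Levels are FPKM and intervals are 95%. Alternatives were DESeq2 1.42.0, its size factors, no filter or a mean CPM of 5 or more, a fit of only the compared groups, a block for the replicate number, limma 3.58.1 with a pseudocount of 1 or 0.1 on log2 FPKM (mean FPKM of 0.5 or more, or every gene), a lowess (span 0.3) of length removed, TMM-scaled CPM in place of FPKM for levels, and each library left out. Counts of list genes and the values of Ifngr2 under these settings were added after seeing the data. Scripts were tested on simulated data. The members and gene lists were chosen with earlier results of these data known. Named genes were all members and, for each list, up to 4 called genes with the largest change and an average log2 CPM above 1, with Stat2 and the Irf2bp genes. A gene of the lists is not reported here. Tmem173, Ifnb1, Ifne, Ifnar2, Jak2, Cgas, Etv6, Batf3, Ciita, Cmpk2 and Ifi44 entered through the same lists. The 3 genes of highest Pearson's r were named for each member. Pairs of replicates differed beyond sampling noise (chi-square over degrees of freedom 6.72 to 101).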

Additional observations from a re-analysis of the deposited data

How the results depend on the processing

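The counts of members that passed with IFN-γ in siR_Ctrl cells (5), for siR_Nostrill with IFN-γ (0) and for the interaction (0) held in every setting run. With IFN-γ in siR_Nostrill cells 5 passed in the main analysis and 4 to 5 in the other settings, the 4 from the loss of Irf5. For siR_Nostrill without IFN-γ, 1 member passed in the main analysis. There, 2 passed with DESeq2, its size factors, a minimum mean of 5 CPM or the length trend removed. In the same comparison 0 passed when only the groups compared were fitted, with the replicate number as a block, or with limma on log2(FPKM + 1) for all genes. Leaving out each library gave 0 to 2. Over all genes, the number that passed ranged from 341 to 1322 with IFN-γ in siR_Ctrl cells (649 in the main analysis), from 491 to 2257 in siR_Nostrill cells (807), from 0 to 404 for siR_Nostrill without IFN-γ (26), from 0 to 1540 with it (51), and was 0 for the interaction. Among partners and co-regulators 1 to 3 rose with IFN-γ in siR_Ctrl and 1 to 4 in siR_Nostrill cells (2 in each main analysis). Among list genes between the siRNAs with IFN-γ, up to 6 of the sensors, adaptors and kinases passed, and up to 3 each of the partners, the genes that need Irf1 and the ISGF3 targets (0 of each in the main analysis). Of the IFN-γ receptor, kinase and inhibitor genes, 0 to 2 passed there (1 in the main analysis), with at most 1 higher and 1 lower. Without IFN-γ 0 to 1 of them passed (0 in the main analysis). Of 18 pairs of libraries with the same replicate number, 8 had a correlation over 0.1 (range -0.49 to 0.73). The length-related spread enters these correlations, so they cannot settle whether replicate numbers pair the libraries. The replicate block lost the call of Irf9 (adjusted p = 0.0640 in edgeR) and that of Ifngr2 with IFN-γ (adjusted p = 0.0503), and changed no other member's call. Signs turned only for changes that never passed. For Irf3 with IFN-γ in siR_Ctrl cells, the log2 fold change of 0.10 became -0.11 or -0.094 (-0.11 to 0.25 with 1 library left out). For siR_Nostrill without IFN-γ, that of Irf2 became 0.093 or 0.034 (-0.30 to 0.093). For siR_Nostrill with IFN-γ, that of Irf2 became -0.10 (-0.10 to 0.26) and that of Irf3 0.031 (-0.32 to 0.031). In the interaction, that of Irf2 became -0.029 or -0.011 (-0.029 to 0.36). Each turn came from leaving out 1 library, siR_Ctrl replicate 1, siR_Nostrill replicate 1 or siR_Ctrl + IFN-γ replicate 2, and the cause was not tested.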

Other observations

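Irf4, a family gene outside the 7 listed here and best known from lymphocytes, had a row but too few reads to be tested. It had 0 to 2 reads in each of the 6 libraries without IFN-γ. With IFN-γ it had 3, 7 and 8 reads in siR_Ctrl + IFN-γ and 8, 14 and 11 reads in siR_Nostrill + IFN-γ libraries, which is at most 0.17 FPKM.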
